A study of Homo sapiens with 12 samples.

Results

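RNA levels were compared between 2 lines of MDA-MB-231, an established triple-negative human breast cancer cell line, treated with dexamethasone (Dex), which is a synthetic glucocorticoid that activates the glucocorticoid receptor (GR). One line expressed wild-type receptor (WT-GR) and the other a receptor in which the serine named Ser134 was replaced by alanine (S134A-GR). Before treatment all cells were starved of serum for 18 h in IMEM medium with 1% DCC. The Dex groups then received 1 µM Dex and the vehicle groups vehicle, both for 6 h. The comparison used 6 of the 12 libraries, the 3 labelled S134A-GR Dex and the 3 labelled WT-GR Dex, chosen by label and not by any measured value. The 6 vehicle libraries, 3 per genotype, served as a second comparison of the same lines. The labels do not say how the receptors were introduced, whether the cells' own receptor was still present, whether a line was 1 clone or a pool, or whether replicate libraries were grown as separate cultures. The receptor mutation and any other difference between the 2 lines therefore cannot be told apart, and the p-values reflect only how far these libraries spread, which may be technical.

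The glucocorticoid receptor is a ligand-activated transcription factor. Without hormone it is held in the cytoplasm by heat shock protein chaperones, and with hormone it enters the nucleus, binds response elements in DNA and recruits coactivators or corepressors. Stress-activated p38 kinase is known to phosphorylate Ser134, and 14-3-3 proteins are known to bind the receptor carrying that phosphate. In triple-negative breast cancer cells the receptor is known for its link to migration, survival and metabolic genes.

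The mutated codon lies in the first coding exon of NR3C1, the gene of the receptor, which is exon 2 of 9 of the annotated transcript. The stretch around it is shown because the labels name its substitution as the difference between the lines. It spans chr5:143400426-143400452 on the minus strand of GRCh38 and is printed 5′ to 3′ along the coding strand, from the GENCODE transcript, with the codon of the serine, at 143400438 to 143400440, in capitals.
NR3C1 codon of Ser134: aataggtcgaccAGTgttccagagaac

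A gene-level count cannot show this substitution, so NR3C1 levels do not check the genotype labels. NR3C1 (chromosome 5, 143277931 to 143435512, GRCh38) was at 9214, 8707 and 10246 normalized read counts in WT-GR Dex and at 8354, 7529 and 7469 in S134A-GR Dex. Each S134A-GR library was below each WT-GR library, a log2 difference of -0.27 ± 0.08 (SE) with limma adjusted p = 0.0099. The call was not kept with scaling by library size only, at -0.15, nor without WT-GR Dex replicates 2 and 3, at -0.25. That fit, here and in what follows, leaves 1 WT-GR Dex library, which is assumed to vary like the libraries of the other groups.

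Recovered depth in the 6 Dex libraries ran from 56.9 to 100.6 M reads (M, reads in units of 1e6). Gene names of all Dex values had been shifted in the deposited files and were repaired by line order from the vehicle files, and every value below rests on that repair. Replicates 2 and 3 of WT-GR Dex stood apart: 193 and 210 genes had a single read in them, where each of the other 10 libraries had 352 to 409 such genes. On the second principal component of the 6 Dex libraries, which carried 15.9% of the variance, they lay at 46.99 and -50.4, with the other 4 between -4.691 and 6.009. The first component carried 62.8% and separated the genotypes. The median SD of the log2 values was 0.148 in WT-GR Dex against 0.0906 in S134A-GR Dex. Normalized totals also differed with genotype, at 93.7 to 97.1 M in WT-GR Dex against 87.1 to 88.2 M in S134A-GR Dex.

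Markers of the labelled line were present in both genotypes. All 12 markers of basal B breast cancer lines were detected in every Dex library, and their summed level was 1041405 to 1082759 in WT-GR Dex against 1039697 to 1055605 in S134A-GR Dex. The oestrogen receptor gene ESR1 was at 0 in 5 of the 6 Dex libraries and at 1.75 in S134A-GR Dex replicate 2, while PGR was not analysed here. ERBB2 was at 11689, 11288 and 11073 in WT-GR Dex and at 10694, 11746 and 12005 in S134A-GR Dex. Of 10 blood cell markers measured, 4 were under 10 in every Dex library, FCGR3A and HBA1 among them at 0 throughout, and PTPRC, the leukocyte antigen CD45, ran from 0 to 18.3. Others were detected: CD8A was at 101 to 157 in WT-GR Dex and at 167 to 181 in S134A-GR Dex. CD14 was at 6.10 to 54.9 in WT-GR Dex and at 3.77 to 5.25 in S134A-GR Dex. The summed level of the 10 was 26976 to 30719 in WT-GR Dex against 36918 to 39542 in S134A-GR Dex, most of it from CD68, a lysosomal protein. Of 9 fibroblast markers 3 were under 10 throughout, and the sum of the 9 was 3163 to 4078 against 3375 to 3694. Most of this sum came from COL1A1, at 814 to 1147 against 1714 to 1834, and PDGFRB, at 2290 to 2871.5 against 1625 to 1827. These differed in opposite directions.

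The genotypes differed widely in Dex. Of 15957 genes tested, 7931 (49.7%) were called at a limma adjusted p under 0.05, 3730 higher (23.4%) and 4201 lower (26.3%) in S134A-GR cells. Most differences were small: 63.4% of the called genes differed by less than 1.5-fold, and 1521 genes (9.53%) differed at least 2-fold, 840 higher (5.26%) and 681 lower (4.27%). At 8-fold or more the order turned, with 55 genes higher and 219 lower. The 3 values of one genotype did not overlap the 3 of the other for 8355 genes (52.4%). Without WT-GR Dex replicates 2 and 3, 7332 genes were called, of which 6148 were among the 7931. The split of the calls depended on the scaling: 47.0% of calls were higher here, against 64.9% with scaling by library size only, which moved the median log2 difference of all genes from 0.01 to 0.11.

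**Figure D1:**
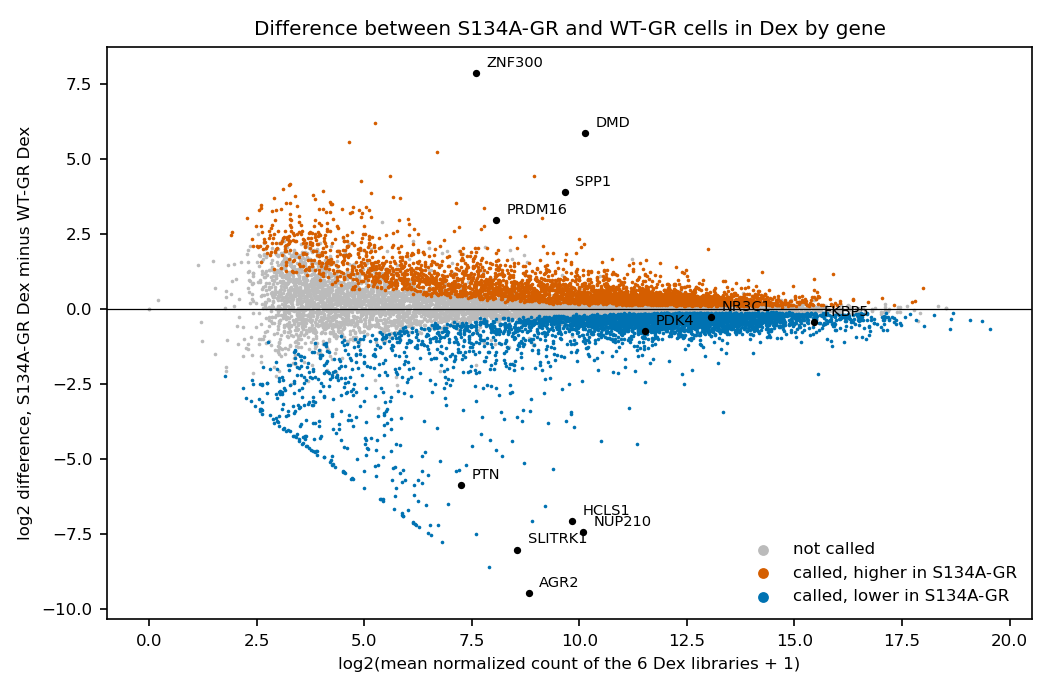
Log2 difference between S134A-GR Dex and WT-GR Dex (vertical axis) against the log2 of the mean normalized count of the 6 Dex libraries plus 1 (horizontal axis), 1 point per gene for 15957 genes, coloured by call. Blue points reach down to AGR2 at -9.46, and orange points up to ZNF300 at 7.88, with DMD at 5.87.

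Genes with high levels in WT-GR cells and almost none in S134A-GR cells made up the lower end of the comparison. Lower genes are named where their mean was at least 200 in the higher group and their values did not overlap. Levels are normalized read counts.

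AGR2, a protein disulfide isomerase of secretory epithelium (chromosome 7, 16791811 to 16804999), was at 782, 861 and 1073 in WT-GR Dex and at 1.06, 0 and 0 in S134A-GR Dex. Of its reads, 2376 came from the 3 WT-GR Dex libraries and 1 from the 3 S134A-GR Dex libraries, a ratio of normalized levels of 2571 with a 95% counting interval of 509 to 112007. TFF3, a trefoil factor secreted with mucus (chromosome 21, 42311667 to 42315409), was at 587, 444 and 403 and at 0, 0.875 and 0. All 3 WT-GR libraries carried both genes, and in S134A-GR Dex each was detected by 1 read in 1 library. PNPLA4, a lipid hydrolase gene of the patatin-like family (chromosome X, 7898247 to 7927724), was at 232, 166 and 268 in WT-GR Dex and at 0 in every S134A-GR library of both treatments. Against a floor of 3 reads over the group, PNPLA4 was at least 232-fold lower in S134A-GR Dex. The limma adjusted p was 2.42e-07 for AGR2, 5.13e-09 for TFF3 and 1.81e-09 for PNPLA4. Intervals and floors cover counting error only.

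Genes of other functions were lower as well. SLITRK1, a neuronal transmembrane protein (chromosome 13, 83877205 to 83882474), was at 872, 699 and 678 in WT-GR Dex and at 0, 5.25 and 2.83 in S134A-GR Dex, a log2 difference of -8.02 ± 0.49 (limma adjusted p = 3.68e-08). NKX2-1, a homeobox transcription factor of lung and thyroid (chromosome 14, 36516397 to 36520232), was at 386, 422 and 336 and at 1.06, 3.50 and 0. NUP210, a membrane protein of the nuclear pore (chromosome 3, 13316235 to 13420322), was at 2284, 1978 and 2226 against 12.7, 7.001 and 16.95, 177-fold lower. In each of these 3 genes every S134A-GR value lay far below every WT-GR value. HCLS1, an actin-binding relative of cortactin best known in blood cells, was at 1953, 1632 and 1814 against 10.6, 14.002 and 13.2, 143-fold lower. HCLS1 had a high level in all 3 WT-GR Dex libraries, where the leukocyte antigen gene PTPRC was at 18.3 or less. GLB1L2, a relative of beta-galactosidase, was at 184, 232 and 211 against 0, 0 and 1.88, with 2 reads over the S134A-GR Dex libraries and a ratio of 333 (95% counting interval 90.5 to 2700.3). Other genes of this group were NYNRIN, the cholesterol transfer protein gene GRAMD1B and PTN, which encodes the secreted growth factor pleiotrophin, with log2 differences of -7.06, -6.49 and -5.86.

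Fewer genes were higher in S134A-GR cells to a like degree. ZNF300, a zinc finger protein gene (chromosome 5, 150894399 to 150904980), was at 3.41, 0 and 0 in WT-GR Dex and at 381, 347 and 430.4 in S134A-GR Dex, with 2 reads over the 3 WT-GR libraries and a ratio of 340 (95% counting interval 129 to 3857). DMD, which encodes dystrophin, the link between cytoskeleton and matrix in muscle (chromosome X, 31119222 to 33339388), was at 23.9, 49.9 and 41.7 against 2233, 2206 and 2209, 57.5-fold higher with limma adjusted p = 4.74e-10. SPP1, the secreted matrix protein osteopontin (chromosome 4, 87975714 to 87983411), was at 95.6, 104 and 104 against 1552, 1486 and 1524, 15.05-fold higher with limma adjusted p = 1.56e-10. In each of these 3 the S134A-GR libraries lay far above the WT-GR libraries. The orphan receptor gene GPR78, IGFN1 and PRDM16, a regulator of brown fat, were 10.3, 8.17 and 7.92-fold higher. DGKI, a diacylglycerol kinase, UCA1, a long non-coding RNA, MMP25, a membrane-bound metalloproteinase, and SLC9A3, a sodium-proton exchanger, were 6.97, 6.85, 6.06 and 5.16-fold higher. MMP25 overlaps the antisense gene MMP25-AS1 (log2 difference 1.42), and no source used here states that strand was used in counting, so their reads cannot be told apart. The rule also named GTPBP6, at 427, 13.97 and 7.12 against 964, 533 and 1032, and INTS3, at 40.97, 37.9 and 49.8 against 581, 462 and 80.998. Both varied widely within groups and are uncertain, GTPBP6 also because X and Y carry copies of it, and its log2 difference was 4.44, but 0.92 without WT-GR Dex replicates 2 and 3, when it was no longer called. The call was also lost in both edgeR fits (2.61 and 2.74) and in DESeq2 (2.501). The INTS3 call (2.69) was lost when any single WT-GR Dex library was left out (2.60 to 2.79), without S134A-GR Dex replicate 1 (2.16) or 2 (2.32), without WT-GR Dex replicates 2 and 3 (2.74) or with library weights (2.30).

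**Figure D2:**
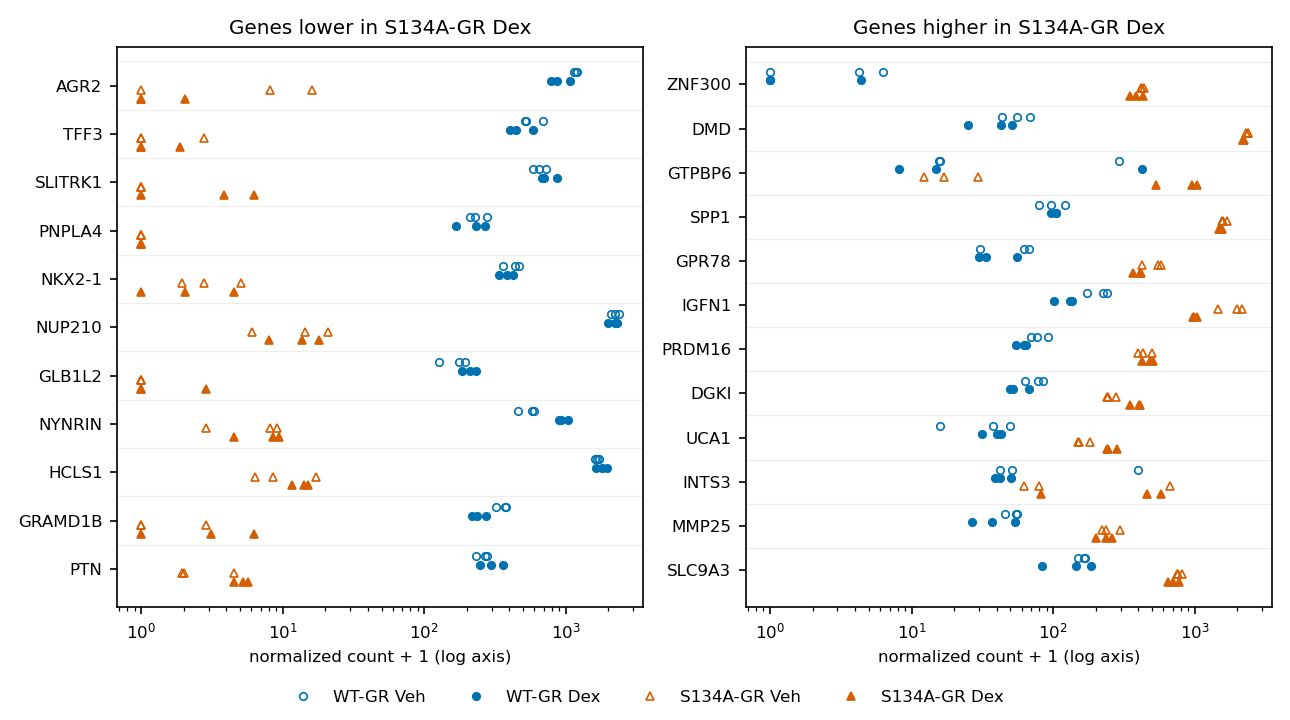
Normalized count plus 1 (log axis) of 11 of the 12 lower genes and the 12 higher genes in each of the 12 libraries, circles for WT-GR, triangles for S134A-GR, open for vehicle and filled for Dex. In all genes shown the filled circles and filled triangles do not overlap, a condition of the choice, and PNPLA4 has all 6 triangles at 0.

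The pattern was already present without Dex for 22 of these 24 genes, which were called in the same direction in vehicle, where 50.5% of all genes tested were called. GTPBP6 and INTS3 were not called there. In all, 6 of the 24 were under 10 in every S134A-GR library and at least 200 in every WT-GR library of both treatments: GRAMD1B, NKX2-1, NYNRIN, PTN, SLITRK1 and TFF3. ZNF300 was the 1 gene with the reverse pattern. AGR2 missed this rule because S134A-GR vehicle held 15.1, 0 and 7.13. Over all genes tested, the 3 values of one genotype did not overlap those of the other for 64.3% in vehicle.

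Promoter windows are shown for the genes of this on-or-off pattern that had a single window in the RefSeq table, because their levels differed most completely between the lines. Each runs from 250 bases before to 50 bases after the start (RefSeq, GRCh38.p14), 5′ to 3′ along the gene's strand, with CpG pairs in capitals. NYNRIN lies at chr14:24398753-24399052 on the plus strand, PTN at chr7:137343684-137343983 and ZNF300 at chr5:150904931-150905230 on the minus strand.
NYNRIN: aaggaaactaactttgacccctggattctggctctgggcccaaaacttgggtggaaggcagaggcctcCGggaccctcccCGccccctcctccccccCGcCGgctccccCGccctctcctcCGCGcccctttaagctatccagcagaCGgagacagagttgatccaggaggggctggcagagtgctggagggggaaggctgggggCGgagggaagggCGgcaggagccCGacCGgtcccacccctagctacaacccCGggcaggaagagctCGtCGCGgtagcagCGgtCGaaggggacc
PTN: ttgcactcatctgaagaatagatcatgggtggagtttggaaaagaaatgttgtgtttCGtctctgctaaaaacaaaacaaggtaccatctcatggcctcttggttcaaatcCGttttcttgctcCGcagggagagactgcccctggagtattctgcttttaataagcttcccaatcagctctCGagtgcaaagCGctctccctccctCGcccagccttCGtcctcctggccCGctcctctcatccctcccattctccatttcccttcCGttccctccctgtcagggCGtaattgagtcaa
ZNF300: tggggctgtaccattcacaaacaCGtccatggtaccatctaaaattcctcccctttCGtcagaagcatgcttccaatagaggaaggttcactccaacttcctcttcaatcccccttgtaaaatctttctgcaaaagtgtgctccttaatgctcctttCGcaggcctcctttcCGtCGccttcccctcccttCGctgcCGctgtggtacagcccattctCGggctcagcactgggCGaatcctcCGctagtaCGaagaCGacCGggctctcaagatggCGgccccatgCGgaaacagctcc

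These windows held 18, 10 and 15 CpG pairs. Over the 12078 tested genes with a window the median was 25, with quartiles of 16 and 33. The 8 of the 12 lower genes with a window had a median of 10 and the 9 of the 12 higher genes one of 15. No methylation was measured here. The glucocorticoid response element GNACANNNTGTNC, searched on both strands, was in a window of 46 of these 12078 genes (0.381%) and of 0 of 27 glucocorticoid-induced genes with a window, which describes only these 300 bases.

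Neighbouring genes showed where the differences were shared along the chromosome and where they stopped. Of the 46 tested genes next to the 24, 24 were called in the same direction, 8 in the opposite direction and 14 were not called. Of those called in the same direction, 8 differed at least 2-fold. Over all genes tested 49.7% were called, 23.4% higher and 26.3% lower, and 9.53% were called with at least a 2-fold difference. PTN and DGKI count as neighbours of each other, in opposite directions, and MMP25-AS1, which overlaps MMP25, is counted too. The genes in this paragraph were chosen as neighbours after the values were seen. On chromosome 14, SFTA3 was at 142, 105 and 108 and NKX2-8, another homeobox gene, at 69.99, 55.9 and 58.99 in WT-GR Dex, and both were at 0 in all 6 S134A-GR libraries. SFTA3 overlaps NKX2-1, so reads of these 2 cannot be told apart, whereas NKX2-8 lies apart from both. On chromosome 21, the trefoil genes TFF2, at 126, 107 and 112, and TFF1, at 27.3, 10.98 and 22.4, were at 0 in S134A-GR Dex, as was ABCG1, a sterol exporter, at 11.95, 13.97 and 4.07. The trefoil cluster and its neighbour were thus low together. The pattern broke within other gene pairs. SLITRK6, the gene next to SLITRK1, was at 3.41, 5.99 and 2.03 in WT-GR Dex and at 69.7, 62.1 and 65.9 in S134A-GR Dex, 17.3-fold higher. PTN was lower and its neighbour DGKI higher, and both genes flanking NUP210 were not called (IQSEC1 0.02, HDAC11 0.05).

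Genes induced by glucocorticoids were lower more often than higher in S134A-GR Dex. Of 31 tested members of the list, 13 were lower and 3 higher, with a median log2 difference of -0.14, against 0.01 over all genes, of which 26.3% were lower and 23.4% higher. BIRC3, an inhibitor of apoptosis, was at 2361, 2487 and 2975 in WT-GR Dex and at 1069, 770.1 and 812 in S134A-GR Dex, a log2 difference of -1.57 ± 0.13 (limma adjusted p = 5.01e-07). The acute-phase gene SAA1 was at 1000.4, 829.5 and 1080.1 against 389, 378 and 423, a difference of -1.28. ERRFI1, which restrains EGF receptor signalling, CEBPD, a transcription factor of the acute phase, and TFCP2L1 were lower, with log2 differences of -0.86, -0.79 and -0.74. PDK4, which inhibits pyruvate dehydrogenase, was at 3488, 3664 and 3961 against 2218, 2157 and 2322, a difference of -0.73 ± 0.08 (limma adjusted p = 6.29e-06). KLF15, a transcription factor of amino acid breakdown, went the other way, at 505, 419 and 399.7 against 787, 873 and 938 and a log2 difference of 0.97. DPEP1, a dipeptidase, was at 519, 478 and 467 against 1016, 1023 and 1166 with no overlap, yet was not called (limma adjusted p = 0.105). It was called, at a log2 difference of 1.13, when only the Dex groups were fitted. In vehicle 9 members were higher and 8 lower (23.8% and 26.7% over all genes), with a median of -0.002, and 3 of the 31 passed the test of the difference between treatments. Without WT-GR Dex replicates 2 and 3 the counts in Dex were 11 lower and 2 higher, and with scaling by library size only 11 lower and 8 higher.

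Partners of the receptor differed in both directions. Of 18 genes for the receptor and its chaperones 6 were higher and 6 lower, and 9 and 3 with scaling by library size only. Over all genes tested 23.4% were higher and 26.3% lower, the shares to set beside this and every later list. FKBP5, the co-chaperone that lowers the receptor's affinity for hormone, was at 49104, 50605 and 54595 in WT-GR Dex and at 37722, 37845 and 37962 in S134A-GR Dex, while FKBP4, the co-chaperone that favours nuclear transport, was at 16041, 14968 and 14181 against 20597, 20638 and 21020.0. FKBP5 had a log2 difference of -0.44 and FKBP4 one of 0.46, both with no overlap. The heat shock gene HSPA1A, which has a near-identical copy and is uncertain, had a difference of 1.74. Of the 7 genes for 14-3-3 proteins 5 were lower and 0 higher, led by YWHAQ at -0.51, but with scaling by library size only 2 were lower and 1 higher. The member that was then higher was YWHAZ, described after its values were seen, at 180184, 193284 and 201321 in WT-GR Dex and at 213797, 204218 and 203501 in S134A-GR Dex with no overlap. Its log2 difference of 0.11 missed the threshold (limma adjusted p = 0.0554), but it was called higher in both edgeR fits, in DESeq2, with quantile normalization and without WT-GR Dex replicates 2 and 3 (0.11 to 0.23). YWHAE was at 548, 589.9 and 519.7 against 5882, 540.0 and 518, so that 1 S134A-GR library stood far above the other 5 and the groups overlapped. After subtracting from each gene the median of its chromosome window the median of the 7 was -0.04, against -0.22 before.

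Of 26 genes of the p38 pathway, 12 were lower and 2 higher, though their median of -0.10 turned to 0.01 with scaling by library size only. In all 53.8% of this list was called, near the 49.7% over all genes, of which 26.3% were lower and 23.4% higher. MAP2K6, a kinase that activates p38, was at 106, 87.8 and 119 in WT-GR Dex and at 20.1, 22.8 and 35.8 in S134A-GR Dex, 3.98-fold lower. MAPK11, which encodes the beta form of p38, was 1.92-fold higher. MAP3K5, a stress-activated upstream kinase, and RPS6KA4, a kinase downstream of p38, had log2 differences of -0.85 and -0.64. Phosphatases and feedback inhibitors of MAP kinases were lower in 10 of 14 cases and higher in 0, with a median of -0.37. They included the Sprouty-related genes SPRED2, SPRY1 and SPRY4, at -0.84, -0.79 and -0.65, and the phosphatase DUSP4 at -0.58. This list was lower in 9 of 14 cases in vehicle as well, and in 10 in Dex without WT-GR Dex replicates 2 and 3.

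Genes of energy metabolism were more often lower than higher, where 26.3% of all genes were lower and 23.4% higher. Of 24 glycolysis genes 15 were lower and 2 higher, with a median of -0.33 in Dex and -0.20 in vehicle. With quantile normalization, added after the data were seen, 9 were lower and 6 higher, with a median of -0.08. ENO1, the enolase, was at 514302, 482487 and 473333 in WT-GR Dex and at 308602, 315308 and 313473 in S134A-GR Dex, a log2 difference of -0.65 ± 0.04 (limma adjusted p = 5.14e-08). All 3 S134A-GR values lay well below the 3 WT-GR values. The aldolase ALDOC, the glucose transporter SLC2A1 and lactate dehydrogenase A (LDHA) had differences of -0.82, -0.54 and -0.51. Of 26 TCA cycle genes 14 were lower and 3 higher, led by SDHD, a subunit of succinate dehydrogenase, at -0.86 and SUCLA2, a subunit of succinyl-CoA ligase, at -0.70. Of 26 fatty acid oxidation genes 12 were lower and 2 higher, among them ACSL3, which activates fatty acids, at -0.66, with CPT1C, a carnitine palmitoyltransferase of brain, higher at 0.87. The share of this list that was called, 53.8%, was near the 49.7% over all genes. Of 38 respiratory chain subunits 20 were lower and 5 higher, against 11 and 10 in vehicle, 9 and 9 with scaling by library size only, and 10 and 8 with quantile normalization.

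Among 14 genes of the pyruvate dehydrogenase complex and its regulators, 7 were lower and 4 higher (26.3% and 23.4% over all genes). With scaling by library size only 5 were lower and 6 higher. DLAT, the acetyl-transferring subunit, was at 8209.9, 8157 and 8898 in WT-GR Dex and at 4756, 4735 and 4561 in S134A-GR Dex, a difference of -0.85 in Dex and -1.02 in vehicle. Of its difference in Dex, -0.23 remained after subtracting its window on chromosome 11. The kinases PDK3 and PDK1 were lower, with log2 differences of -0.64 and -0.52, beside PDK4 at -0.73.

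Epithelial and luminal genes were more often lower than higher in S134A-GR Dex. KRT19, a keratin of simple epithelium, was at 3404, 2873 and 3019.6 in WT-GR Dex and at 669.9, 704 and 744 in S134A-GR Dex, 4.39-fold lower (limma adjusted p = 8.48e-10). CLDN4, a tight junction protein, was at 476, 435 and 326 against 108, 81.4 and 123, 3.96-fold lower, and SPDEF, a transcription factor of secretory epithelium, was at 435, 412 and 326 against 84.5, 58.6 and 61.2. For all 3 the groups were far apart. Of 13 keratins 8 were lower and 2 higher, and of 29 epithelial genes 12 and 5 (26.3% and 23.4% over all genes). Of the epithelial genes 58.6% were called, against 49.7% over all genes. The epithelial transcription factor ELF3 had a difference of -2.10 at low levels, 15.4, 43.9 and 32.5 against 9.51, 5.25 and 3.77. The calls of CDH1 (-2.26), PKP1 (2.12), KRT4 (-2.54) and KRT17 (-2.47) rest on low values and were not kept without WT-GR Dex replicates 2 and 3, at -2.75, 1.23, -1.70 and -2.75. Of 12 luminal markers tested 7 were lower and 2 higher, and the summed level of the 13 measured was 146411 to 167569 in WT-GR Dex against 127615 to 140314 in S134A-GR Dex. In bulk RNA, fewer cells of a type and less RNA per cell cannot be told apart.

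Mesenchymal genes were split. Of 25 tested 9 were lower and 5 higher, and with scaling by library size only 8 were lower and 10 higher. This is 56% called, against 49.7% over all genes, of which 26.3% were lower and 23.4% higher in the main fit. CDH11, a mesenchymal cadherin, was at 4807, 5194 and 4974 in WT-GR Dex and at 920.3, 875 and 972 in S134A-GR Dex, 5.41-fold lower (limma adjusted p = 3.5e-11). FN1, fibronectin, was at 87082, 62286 and 84869 against 17605, 17176 and 17662, 4.47-fold lower. The transcription factor gene TCF4 was higher by 1.36 at low levels. CDH11 and FN1 were thus lower beside KRT19 and CLDN4.

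Adhesion genes differed in both directions, as did all genes, of which 26.3% were lower and 23.4% higher. ITGB2, the beta subunit of leukocyte integrins, was at 1724, 1334 and 1539.8 in WT-GR Dex and at 107, 124 and 113 in S134A-GR Dex, 13.4-fold lower (limma adjusted p = 8.7e-11). ITGA7, the laminin receptor of muscle, went the other way, at 123, 84.8 and 109.8 against 539, 575 and 563, 5.28-fold higher. Of 17 integrin subunits 7 were lower and 5 higher, or 7 and 7 with scaling by library size only. Among 27 tensins and focal adhesion adaptors 14 were lower and 5 higher. NEDD9, a docking protein of migrating cells, was at 579, 483 and 644 against 109, 78.8 and 110.2, 5.73-fold lower, and TNS4, a focal adhesion adaptor, at 3046, 2741 and 2827 against 653, 648 and 710.1, 4.28-fold lower.

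Matrix genes differed in both directions. COL6A3, a chain of collagen VI, was at 4336, 3569 and 4581 in WT-GR Dex and at 392, 404 and 459.6 in S134A-GR Dex, 9.94-fold lower (limma adjusted p = 5.7e-10). LAMA1, a laminin chain of basement membrane, was at 215, 232 and 242 against 683, 657 and 688, 2.94-fold higher. COL4A5 was at 6.83, 37.9 and 21.4 in WT-GR Dex and at 0 in all 3 S134A-GR Dex libraries, at least 23.01-fold lower against 3 reads over the group. Of 32 collagens and laminins 11 were higher and 12 lower, and of 35 matrix proteases and inhibitors 12 and 14 (23.4% and 26.3% over all genes). Their higher calls outnumbered the lower ones with scaling by library size only, 12 to 11 and 16 to 13. Metalloproteinases MMP9 and MMP1 were lower by 4.43 and 3.77-fold and the inhibitor TIMP3 by 2.498-fold, while MMP15 was 2.36-fold higher. Of 23 TGF-beta ligands, receptors and targets 13 were lower and 5 higher, with the ligand TGFB2 at 5461, 5346 and 6101 against 3145, 2919 and 3014 and the co-receptor TGFBR3 at a log2 difference of -0.88. BAMBI, a decoy receptor, was higher by 0.70.

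Inflammatory genes were more often lower than higher (26.3% and 23.4% over all genes). ICAM1, an adhesion molecule that binds ITGB2-containing integrins, was at 364, 226 and 272 in WT-GR Dex and at 27.5, 23.6 and 29.2 in S134A-GR Dex, 10.7-fold lower (limma adjusted p = 2.5e-08). The survival gene BCL2A1 was at 40.97, 76.9 and 106 against 6.34, 14.002 and 9.42 and the chemokine CXCL1 at 184, 159.7 and 234 against 53.9, 37.6 and 51.8. No value overlapped between the genotypes for these 3 genes. Of 30 cytokine, chemokine and NF-kB genes 15 were lower and 4 higher, with a median of -0.37 in Dex and -0.25 in vehicle.

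BST2, tetherin, an interferon-induced protein that retains budding viruses, was at 5284, 4905 and 4649.8 in WT-GR Dex against 208, 221 and 219 in S134A-GR Dex, 22.9-fold lower with limma adjusted p = 1.17e-12. MX2 and IFIT2, antiviral effectors, were lower, at -1.79 and -1.23 on the log2 scale. IFI44L was higher, at 159, 127 and 113 against 424, 425 and 395, and the list was split: 18 of 37 were lower and 9 higher, with the same counts without WT-GR Dex replicates 2 and 3. Over all genes 26.3% were lower and 23.4% higher. Of 22 genes for MHC and antigen presentation 6 were lower, close to that share, and 3 higher, so that 40.9% were called against 49.7% over all genes. NLRC5, the activator of class I genes, was higher by 0.95. TAP2 was called lower (-3.59) but ran from 324 to 1071 within WT-GR Dex and is uncertain, and its call was lost without WT-GR Dex replicates 2 and 3 (-2.71). Endothelial genes measured beside these were lower in 4 of 8 cases and higher in 0 (26.3% and 23.4% over all genes). CDH5, the cadherin of endothelium, was at 394, 353 and 420.0 against 47.5, 28.9 and 21.7, and the receptor gene TIE1 was 3.19-fold lower. KDR went the other way, at 905, 936 and 1030 against 1293, 1179 and 1285 with no overlap, but was not called. The summed level of the 8 was 14861 to 16725 in WT-GR Dex against 9775 to 10367 in S134A-GR Dex, and its part in other results was not tested.

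Genes of growth factor and developmental pathways are given beside the shares over all genes, of which 26.3% were lower and 23.4% higher. TGFA, a ligand of the EGF receptor, was at 1659, 1683 and 1605 in WT-GR Dex and at 722, 626 and 741 in S134A-GR Dex, 2.37-fold lower (limma adjusted p = 1.69e-08), and the related ligand HBEGF was 1.66-fold lower. Of 38 receptor tyrosine kinases and ligands 15 were lower and 7 higher, among them VEGFA at -1.01, the orphan receptor ROR1 at -1.01 and EFNB1 at -0.84. Of 32 immediate-early genes 12 were lower and 3 higher, although their median of -0.11 was 0.0045 with scaling by library size only. Of 29 YAP and TEAD targets 15 were lower and 3 higher. CYR61, a matricellular target of YAP, was lower at -0.68, and YAP1 itself, on chromosome 11, at -0.66, of which -0.09 remained after subtracting its window.

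In the Notch pathway 6 of 19 genes were lower and 2 higher. The shares called in the Notch and Wnt lists, 42.1% and 42.9%, were under the 49.7% over all genes. HES1, a transcriptional target of Notch, was at 1076, 974 and 1097 in WT-GR Dex and at 187, 229 and 232 in S134A-GR Dex, 4.86-fold lower, and the ligand JAG1 was at 4710.1, 4467 and 4553 against 2371, 2354 and 2333, 1.95-fold lower. The ligand JAG2 was higher by 0.68. Of 28 Wnt genes 7 were lower and 5 higher, a split that turned to 6 and 9 with scaling by library size only. LRP5, a Wnt co-receptor, was at 27182, 24859 and 21810.1 against 8160.5, 9158 and 9389, 2.77-fold lower. Among 30 apoptosis regulators 14 were lower and 4 higher, with the death receptor FAS higher by 1.11 and BMF, which promotes apoptosis, lower at -0.86.

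Lipid synthesis gave a one-sided list, where 26.3% of all genes were lower and 23.4% higher. Of 32 genes of cholesterol and fatty acid synthesis 25 were lower and 0 higher, with a median of -0.47 in Dex and -0.52 in vehicle. The fatty acid desaturase FADS2 was at 85933, 74935 and 77435 in WT-GR Dex and at 35989, 38092 and 39984 in S134A-GR Dex, 2.09-fold lower (limma adjusted p = 1.14e-08), with no overlap. The sterol enzymes SC5D and TM7SF2 had log2 differences of -1.06 and -0.97. FADS2, SC5D and TM7SF2 lie on chromosome 11, and after each gene's window median was subtracted the list median was -0.44. The counts were 24 lower and 0 higher without WT-GR Dex replicates 2 and 3, which rests on 1 WT-GR Dex library, and 20 and 2 with scaling by library size only.

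Lists of stress responses and protein synthesis held mostly lower calls, where 26.3% of all genes were lower and 23.4% higher. Of 34 genes of the unfolded protein response and ATF4 22 were lower and 3 higher. Log2 differences in this list ran from -0.995 to 0.999, so its largest was in a higher gene. Among the lower genes were DDIT4, an inhibitor of mTOR signalling, at 80457, 72635 and 67925 against 34864, 38753 and 37144. Asparagine synthetase (ASNS) and the disulfide isomerase PDIA6 were also lower, at log2 differences of -0.95 and -0.93. Of 27 hypoxia-responsive genes 20 were lower and 4 higher. EPAS1, which encodes the hypoxia-inducible factor HIF-2 alpha, was at 17058, 14703 and 16096 in WT-GR Dex and at 5611, 5809 and 6039 in S134A-GR Dex, 2.74-fold lower, and the carbonic anhydrase CA9 was 2.30-fold lower. Of 50 cytosolic ribosomal proteins 38 were lower and 0 higher, with a median of -0.29 in Dex and -0.13 in vehicle, where 25 were lower and 4 higher. RPS3 was at 148681, 136373 and 129739 against 65629, 69896 and 71338, a log2 difference of -1.002, and many of these genes have processed copies that can share reads. With quantile normalization, added after the data were seen, 20 ribosomal genes were lower and 7 higher, with a median of -0.08, and EEF1A1, a translation elongation factor gene, moved from -0.65 to -0.06 and was no longer called.

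A few lists had more higher than lower calls (23.4% and 26.3% over all genes). Of 33 DNA replication genes 12 were higher and 7 lower, including ORC6 of the origin recognition complex, at 2936, 3221 and 3192 in WT-GR Dex against 4872, 4924 and 4877 in S134A-GR Dex, and GINS3 of the replicative helicase at a log2 difference of 0.64. RRM2, a subunit of ribonucleotide reductase, was lower at -0.58. Without WT-GR Dex replicates 2 and 3, with 1 WT-GR Dex library left, the counts were 16 higher and 8 lower. Of 32 mitosis genes 8 were higher and 6 lower, the first close to the 23.4% of all genes that were higher. With 1 WT-GR Dex library left the counts were 14 and 4. HMMR, a spindle-associated hyaluronan receptor, was lower at -1.06. CCND2, cyclin D2, was at 196, 211 and 239 against 956, 897 and 937, 4.32-fold higher, although 7 of 18 genes of its list were lower and 3 higher, a split that turned to 6 and 7 with scaling by library size only. Of 16 HOX genes 5 were higher and 1 lower (3 and 1 without those libraries), and of 8 cancer-testis genes 3 and 1, with SSX1 at 13.7, 15.97 and 10.2 against 133, 83.1 and 126 and MAGEB2 at 271, 162 and 227 against 33.8, 49.01 and 42.4. These 2 genes of the X chromosome differed in opposite directions.

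The remaining lists are given with their largest differences, beside 26.3% of all genes lower and 23.4% higher. Of the clock, zinc, nuclear receptor and histone lists 47.6%, 37.5%, 45% and 23.1% were called, all under the 49.7% over all genes. The clock list had 5 higher and 5 lower genes of 21 (12 and 4 with scaling by library size only), with the repressors BHLHE41 at 1.14 and BHLHE40 at -1.13. Of 16 genes for metallothioneins and zinc transport 2 were higher and 4 lower (5 and 1 with that scaling), yet MT1F was at 147, 104 and 97.6 in WT-GR Dex and at 1.06, 2.63 and 1.88 in S134A-GR Dex, 62.6-fold lower. Its relatives share much of its sequence, so its count is uncertain. Of 40 nuclear receptors and cofactors 14 were lower and 4 higher, with the receptor coregulator PELP1 at 3915, 3810.2 and 3579.9 against 1339, 1487 and 1537, 2.59-fold lower, and the mineralocorticoid receptor gene NR3C2 higher by 0.64. Of 20 genes of caveolae and lipid droplets 9 were lower and 3 higher, with the lipid droplet coat gene PLIN4 at -1.24 and CAV1, the main caveolar protein, at -0.59. Of 16 genes of the breast cancer line and PTK6 list 7 were lower and 3 higher (5 and 5 with that scaling), with the chemokine receptor ACKR3 higher at 6.83, 0 and 2.03 against 29.6, 28.005 and 26.4, and of 13 histone genes 2 were higher and 1 lower. Of 20 housekeeping genes 10 were lower and 3 higher, with a median of -0.12, -0.0011 with scaling by library size only and 0.04 with quantile normalization.

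**Figure D3:**
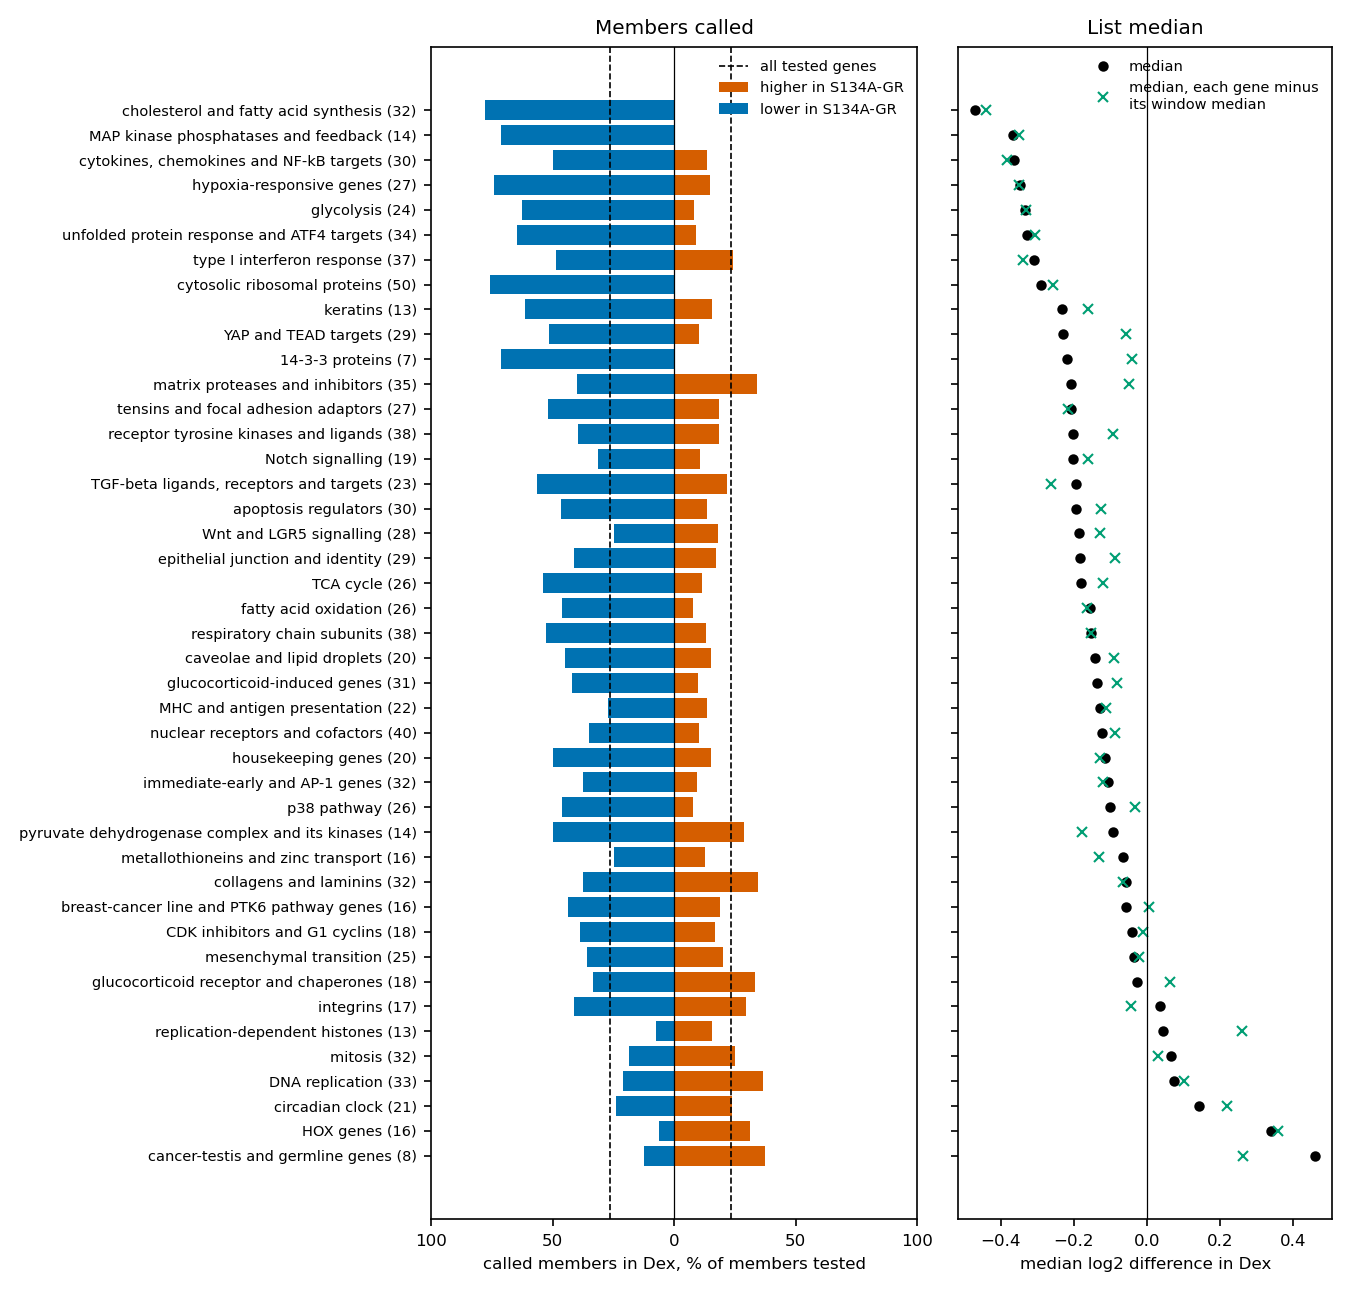
Left, percent of tested members of each gene list called higher (orange) or lower (blue) in S134A-GR Dex, with the number tested in brackets and dashed lines at 23.4% and 26.3%, the shares over all tested genes. Right, median log2 difference of each list (black) and the same after subtracting each gene's window median (green), which lie together for cholesterol and fatty acid synthesis at -0.47 and -0.44 and apart for 14-3-3 proteins at -0.22 and -0.04.

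The differences varied with chromosome position. The 15548 tested genes with 1 place in the RefSeq table (GRCh38.p14) were put into 299 windows of at least 50 consecutive genes. The median difference in Dex was -0.40 on chromosome 11 and -0.40 on chromosome 13, where 60.2% and 64.4% of genes were lower and 7.17% and 4.63% higher. On chromosome 2 it was -0.25, with 49.8% of genes lower. It was 0.28 on chromosome 9, 0.24 on chromosome 4 and 0.23 on chromosome 10, where 56.0%, 50.6% and 46.9% of genes were higher. Of the 32 windows under -0.25, 28 lay on chromosomes 2, 11 and 13, and of the 30 over 0.25, 20 lay on chromosomes 4, 9 and 10. The change along chromosome 11 was abrupt: all 12 windows from position 45647689 to the end of the chromosome were under -0.25, and the other 5, which end at 45235109, lay between -0.12 and 0.03.

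The 3 lowest windows were all on that stretch. They span 116748173 to 120319945, 75434640 to 90192894 and 103907189 to 115504415 on chromosome 11, with medians of -0.63, -0.61 and -0.61 and 37 of 50, 37 of 50 and 44 of 50 genes lower. Their genes of highest mean included HYOU1, a chaperone of the endoplasmic reticulum, at 51677, 46639 and 49339 in WT-GR Dex against 22909, 23104 and 23457 in S134A-GR Dex, the serine protease PRSS23 at 99625, 97769 and 98452 against 46447, 46795 and 46713, and radixin (RDX), which ties actin to the membrane, at 11426, 12192 and 13822 against 8013, 7149 and 7369. On chromosome 10 the window from 23095579 to 38150293 had a median of 0.46, with 43 of 50 genes higher, among them ITGB1, the beta 1 integrin subunit, at 0.36 and the coreceptor NRP1 at 0.33. A window of 75 genes at the end of chromosome 8 had a median of 0.52, with PLEC, the cytoskeletal linker plectin, higher by 0.71. The window with the highest median, 0.61, spans 140645285 to 141651418 on chromosome 5 and holds 37 protocadherin genes, of which 25 were higher and 1 lower. Protocadherins of these clusters share exons, so their counts are uncertain, and the window's median without them was -0.03.

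The vehicle comparison, which uses the other 6 libraries of the same 2 lines, gave -0.33, -0.52 and -0.30 for chromosomes 11, 13 and 2 and 0.28, 0.18 and 0.18 for chromosomes 9, 4 and 10. Across the 299 windows the medians in Dex and vehicle correlated at r = 0.878, as a description, and 247 had the same sign. Window medians ran from -0.63 to 0.61, each less than a 2-fold difference, and include the gene itself. Of 1447 placed genes called with at least a 2-fold difference, 1253 still differed at least 2-fold from their window's median. Medians of this size could change few differences well above 2-fold, so this outcome was partly fixed in advance. Of the 7785 placed called genes 7090 kept their sign, which does not mean that they kept their size. YAP1, for example, kept its sign while most of its difference went. DNA copy number was not analysed here.

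**Figure D4:**
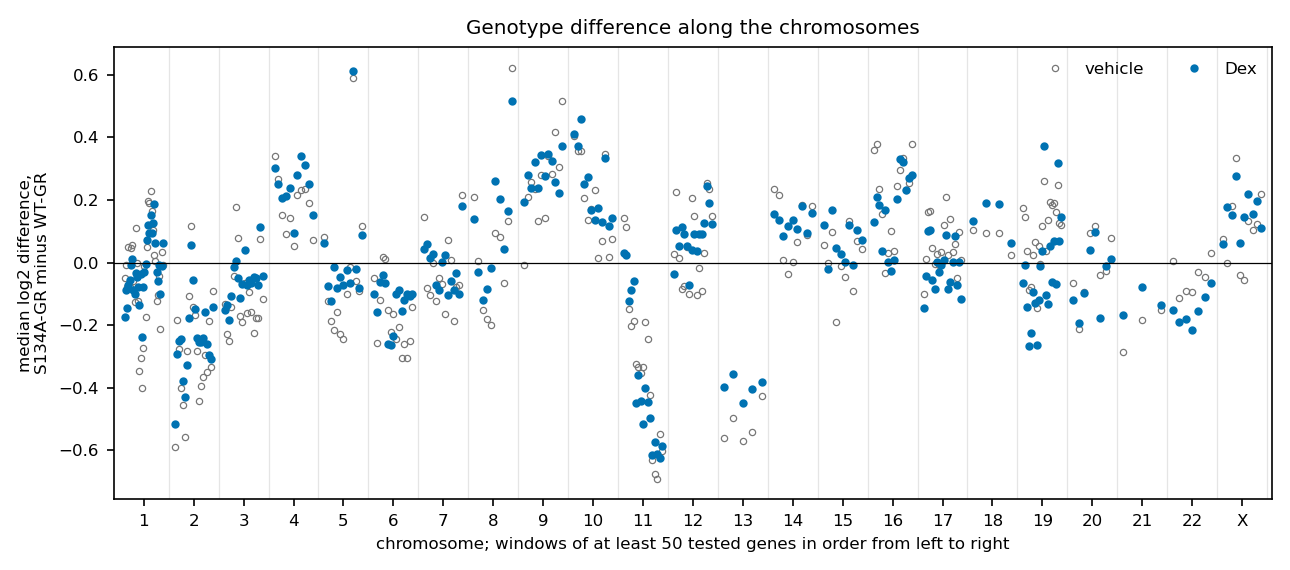
Median log2 difference between S134A-GR and WT-GR cells in each of 299 windows, ordered along each chromosome, in Dex (filled) and vehicle (open). Filled and open points lie low together on the later part of chromosome 11 and on chromosome 13, and high on chromosomes 4, 9 and 10.

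Most genotype differences seen in Dex were also called in vehicle. Of the 7931 genes called in Dex, 5884 (74.2%) were called in vehicle, which is 73.0% of the 8061 called there (50.5% of genes tested), and 22 of them differed in opposite directions. The 2 comparisons share no library but share each gene's estimate of spread. With each treatment fitted alone, 5426 genes were called in both, 83.9% of the 6466 in Dex and 59.3% of the 9155 in vehicle. A call in Dex without one in vehicle does not show that treatments differ: of 2047 such genes, 23 passed the limma test of the difference between treatments. That test called 66 genes (0.414%), 38 with a higher and 28 with a lower genotype difference in Dex, while 2790 had an unadjusted p under 0.05. The count depended on the WT-GR Dex libraries, at 1604 without replicate 3 and 2550 without replicates 2 and 3.

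Among the genes with the largest changes between treatments, some had a smaller genotype difference in Dex and others a larger one. SDPR, a caveolar gene, was at 3492, 3669 and 3433 in WT-GR vehicle and 1124, 1067 and 1156 in S134A-GR vehicle, and at 13868, 13186 and 13648 and 9012, 9479 and 9908 in Dex, so that its log2 difference went from -1.66 to -0.52 (limma adjusted p = 4.53e-06 for the change). TNS4, EDN2, which encodes an endothelin, and ALPP, an alkaline phosphatase, went from -4.64 to -2.10, -2.16 to -0.53 and -2.51 to -1.11. Genotypes overlapped in vehicle and did not overlap in Dex for STOM, a membrane protein of lipid rafts, at 1794, 1913 and 1969 against 1886, 2058 and 2027 in vehicle and 4439, 4606 and 5099 against 2445, 2481 and 2447 in Dex. GATSL3, an arginine sensor of the mTOR pathway, went from -0.02 to -0.98. GTF2IRD2B, which has a near-identical paralog and is uncertain, turned from 0.83 to -0.82. These 7 kept the call in all 24 alternatives run for the change, while FAM65C lost it in 1 and SLC2A14, STON2, GPR89A, LDB3, S1PR3, NRG2, ATOH8 and INPP5J in 6 to 12.

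**Figure D5:**
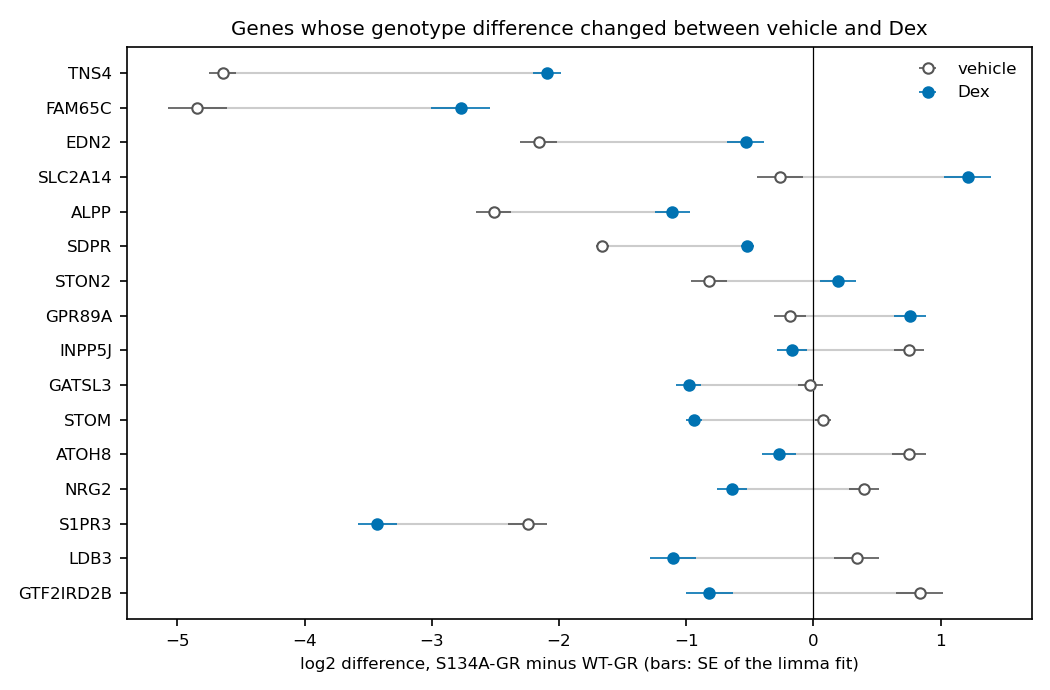
Log2 difference between S134A-GR and WT-GR cells in vehicle (open) and Dex (filled), with SE of the limma fit, for the 8 genes with the largest change in each direction among those past the test. TNS4 moves from -4.64 to -2.10 and STOM from 0.07 to -0.94.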

How the data were processed

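The 12 RNA libraries were paired-end TruSeq libraries of MDA-MB-231 cells, per the labels' protocols. The submitters' processing notes name featureCounts (Subread), FastQC 0.11.7, DESeq2 1.22.2 and the hg38 build. The aligner is not given in the sources used here, nor is the annotation. The deposited signal values of the authors are read counts divided by a size factor per library. Each library's values were whole multiples of 1 step (tolerance 0.01), which gave back the reads. Even counts made up 58.16% to 67.51% of counts from 1 to 20, so reads are not all independent and counting intervals are too narrow.

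The Dex files listed values under shifted gene names. Names from the vehicle files were assigned by line order. Against the vehicle libraries, r of log2 values was 0.9822 to 0.9860 by line and -0.0059 to -0.0040 by name. Of 26485 names, 6578 had no value and 19907 did.

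Genes with at least 10 in at least 3 of 12 libraries (15957) were tested on log2(value + 1) with limma 3.58.1 (R 4.3.3, mean-variance trend, 4 group means in 1 fit, two-sided, Benjamini-Hochberg over all tested genes, threshold 0.05). Contrasts were genotype in Dex, genotype in vehicle and their difference. Log2 differences on this scale understate changes of low genes, and folds are ratios of mean normalized counts. For genes near 0, folds used a floor of 3 reads over the group, and intervals were exact 95% counting intervals. Count tests on the recovered reads used edgeR 4.0.16 and DESeq2 1.42.0 as alternatives. Every value in the 12 libraries came out whole (100%), and these fits called 7855 (edgeR, TMM), 8242 (edgeR, library size only) and 8267 (DESeq2) genes in Dex.

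The fit was tested on simulated counts for 15432 genes of the Dex comparison. It recovered 26% of genes changed 1.25-fold, 60% at 1.5-fold, 80% at 2-fold and 92% at 4-fold, with 11 false calls among the unchanged genes. Only 50 genes were changed at each fold, whereas 49.7% of genes were called in the data. Each gene was also given the same spread in all groups, unlike WT-GR Dex and S134A-GR Dex. These rates therefore do not give the recovery or the false calls of the real comparison.

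Gene lists are described by counts and medians, with no test. The members and lists were chosen with earlier results of these data known. Named genes were the 12 lower and 12 higher genes of largest difference (mean of at least 200 in the higher group, no overlap), PDK4, NR3C1 and 8 glucocorticoid-induced genes by size, up to 4 genes per other list, the 8 largest changes between treatments in each direction, genes near absent in 1 genotype, and the top 3 genes of the 3 highest and 3 lowest windows. Genes of largest difference, of the other lists and of the windows had to be called in Dex to be named. Gene positions came from the RefSeq table (GRCh38.p14), joined by symbol for 15548 tested genes. Results of 2 genes that this rule names are not reported here.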

Additional observations from a re-analysis of the deposited data

Results flagged for a closer look

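The genotype difference itself differed between Dex and vehicle for 18 of the genes named, by the limma test of the difference between treatments. In every case the value is the log2 difference between S134A-GR and WT-GR cells in Dex minus that in vehicle.

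The difference was less negative or more positive in Dex for 9 genes. The change was 2.548 for TNS4, 2.069 for FAM65C, 1.625 for EDN2, 1.475 for SLC2A14, 1.405 for ALPP, 1.141 for SDPR, 1.015 for STON2, 0.9428 for GPR89A and 0.4349 for ERRFI1. TNS4, FAM65C, EDN2, ALPP and SDPR had a negative genotype difference in both treatments and a smaller one in Dex. SLC2A14 and GPR89A each have a near-identical relative, so their counts are uncertain.

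The difference was more negative in Dex for the other 9. The change was -1.651 for GTF2IRD2B, -1.44 for LDB3, -1.181 for S1PR3, -1.033 for NRG2, -1.024 for ATOH8, -1.01 for STOM, -0.9575 for GATSL3, -0.9191 for INPP5J and -0.3818 for FKBP5. GTF2IRD2B has near-identical copies, and its counts are uncertain. FKBP5 and ERRFI1 belong to the genes induced by glucocorticoids.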

How the results depend on the processing

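Of 239 named genes, 234 were called in Dex, and 206 of these kept direction and call under every alternative that could be fitted; none reversed. The other 28 lost the call under at least 1, most often without WT-GR Dex replicates 2 and 3 (18 genes) or with scaling by library size only (9 genes). The count of genes called in Dex was 7903 and 7956 with pseudocounts of 0.5 and 5, 7920 with no filter on low values, 6466 with only the Dex groups fitted and 7661 with quantile normalization, chosen after seeing the data. Genes at least 2-fold apart numbered 990 with a minimum of 50 in 3 libraries. The count of genes whose genotype difference differed between treatments, 66, was 506 with DESeq2, 2854 with library weights, which did not fully converge, 2550 without WT-GR Dex replicates 2 and 3, and 25 with the replicate block. Leaving out 1 library at a time gave 6836 to 8166 genes called in Dex (3147 to 3872 higher, 3686 to 4294 lower, 1358 to 1606 at least 2-fold), 6775 to 8809 in vehicle, and 26 to 1604 for the difference between treatments. With the replicate number as a block, 7490 genes were called in Dex. Deviations of same-numbered libraries correlated at -0.0852 to 0.0551, and those of differently numbered libraries at -0.0765 to 0.0921. No pairing by number was seen, but these values cannot show whether libraries of 1 number were handled together. Depth limits statements on genes with few reads, such as CDH1 and PKP1. A fit of only the compared groups gives no value for the difference between treatments.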
